A study of Mus musculus with 6 samples.

Results

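A set of 10 genes of insulin-like growth factor (IGF) signaling were described in mouse thyroid tumor cells: the ligand Igf1, the receptors Igf1r and Igf2r, the binding proteins Igfbp2, Igfbp3, Igfbp4, Igfbp5, Igfbp6 and Igfbp7, and the receptor adaptor Irs2. They were taken by symbol from a table of 35027 genes, and all 10 were found. All 6 libraries came from tumors of mice that carried the RIK allele, which makes the dox-dependent activator rtTA and the fluorescent protein Kate, and tetO-YAPS127A, a Yap that stays in the nucleus and was expressed in the thyroid. The 3 YAP libraries had no other oncogene, and the 3 BRAFYAP libraries (replicates 1, 2 and 6) also carried LSL-BrafV600E, an activated Braf kept at its own locus. Mice of both groups went on doxycycline (dox) chow at 4 weeks of age per the labels and the study's methods, while the study's results text gives 3 months. About 20000 Kate-positive cells were sorted for each library. The labels give 3 pooled tumors for each YAP library and 1 tumor for each BRAFYAP library, while the study's methods describe a single tumor for every replicate. If the labels hold, pooling and genotype cannot be told apart. Age at collection was not given in the labels. The comparison asks what BrafV600E adds to YAPS127A tumors, and neither normal thyroid nor tumors with BrafV600E alone were analysed here. The study reports poorly differentiated cancers in YAPS127A mice and mostly anaplastic cancers in mice with BrafV600E as well, so the groups may also differ in tumor type. The histology of the tumors in these libraries was not used here.

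IGF1 and IGF2 are secreted ligands that act through the receptor tyrosine kinase IGF1R, which passes the signal to PI3K and AKT through the adaptors IRS1 and IRS2. IGF2R has no kinase and clears IGF2 from the cell surface to the lysosome. IGFBP1 to IGFBP6 bind IGFs outside the cell with high affinity and hold them from the receptor or deliver them on proteolysis, whereas IGFBP7 binds IGFs weakly. Thyroid follicular cells respond to IGF1 and insulin together with TSH.

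The promoters of 4 of the genes are shown here because the first 3 belong to the genes whose groups did not overlap and the fourth is the one among the 10 genes that held the hexamer read by TEAD, the DNA-binding partner of YAP. Each is the 250 bases before a RefSeq transcription start on GRCm38.p6, 5′ to 3′ on the gene's strand, with motif matches in capitals (TATAAA or its reverse complement for the TATA box, GGGCGG for a GC box, GGAATG or its reverse complement for TEAD). They lie at chr11:99040994-99041243 (+) for Igfbp4, chr15:102143936-102144185 (+) for Igfbp6, chr8:11008930-11009179 (−) for Irs2 and chr1:72874866-72875115 (−) for Igfbp5.
Igfbp4: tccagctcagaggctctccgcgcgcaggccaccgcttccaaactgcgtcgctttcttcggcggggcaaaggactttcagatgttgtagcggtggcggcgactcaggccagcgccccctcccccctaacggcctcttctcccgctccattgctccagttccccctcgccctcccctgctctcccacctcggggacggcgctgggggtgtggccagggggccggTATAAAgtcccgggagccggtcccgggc
Igfbp6: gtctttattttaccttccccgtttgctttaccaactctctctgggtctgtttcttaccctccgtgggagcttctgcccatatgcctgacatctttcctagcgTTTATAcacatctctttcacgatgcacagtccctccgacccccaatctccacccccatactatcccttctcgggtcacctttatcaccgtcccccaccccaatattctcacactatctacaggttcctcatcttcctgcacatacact
Irs2: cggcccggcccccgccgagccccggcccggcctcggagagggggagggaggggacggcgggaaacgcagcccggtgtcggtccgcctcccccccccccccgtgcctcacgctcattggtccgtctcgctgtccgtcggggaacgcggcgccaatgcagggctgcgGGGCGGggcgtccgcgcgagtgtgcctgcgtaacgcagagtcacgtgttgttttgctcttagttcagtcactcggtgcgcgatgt
Igfbp5: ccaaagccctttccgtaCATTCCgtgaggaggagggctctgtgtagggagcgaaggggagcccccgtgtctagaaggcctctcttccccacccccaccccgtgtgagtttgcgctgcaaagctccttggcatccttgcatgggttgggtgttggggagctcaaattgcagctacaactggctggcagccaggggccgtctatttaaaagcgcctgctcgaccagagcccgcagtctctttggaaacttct
The Igfbp4 stretch was rich in G and C (69.2%, with 22 CpG dinucleotides) and held TATAAA, the Irs2 stretch was richer still (72.8%, with 34 CpG) and held a GC box, and the Igfbp6 stretch was poorer (49.6%, with 7 CpG). The median over 32851 RefSeq promoters of this length was 52.4%. The 10 symbols had 11 promoters in the table, since Igfbp2 had a pair of starts. On either strand, TATAAA stood in 2 of the 11 (12.4% of all promoters), GGGCGG in 5 (32.7%), GGAATG in 1 (12.6%) and the AP-1 motif TGANTCA in 2, Igf1 and Igfbp2 (6.75%). Neither the FOXO motif TGTTTAC (3.17% of all promoters) nor the ETS motif CCGGAAG (6.91%) was found in the 11. A match of letters is a description and not a binding site.

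Levels are given as scaled reads, which are the reads of a gene estimated from the deposited TPM and set to the authors' common library total, and, for comparison between genes, as TPM recomputed with exonic length. The libraries held an estimated 26156933 to 36915556 reads in genes, and no library had fewer than 11 estimated reads for any of the 10 genes. BRAFYAP replicate 6 stood apart, with a Pearson r of log2 values of 0.732 to 0.836 with the other 5 libraries across 16834 genes, against 0.968 between BRAFYAP replicates 1 and 2. Pax8, a thyroid lineage factor, was read in every library at 5189 to 14663 scaled reads, but thyroglobulin (Tg) had 129 and 51.8 in BRAFYAP replicates 1 and 2 and 19641 in replicate 6. Tshr, Duox2 and Dio1 were each at 0 in at least 1 library. Macrophage genes were abundant although the cells were sorted for Kate, with a summed TPM of 15282 to 49284 in YAP and 4293 to 15026 in BRAFYAP. Of the 11 macrophage markers, 10 had an unadjusted p under 0.05 in limma, all lower in BRAFYAP, against 10.5% of all genes tested. None of the 11 had an adjusted p under 0.05. In such bulk samples, fewer cells of a type and less RNA per cell cannot be told apart.

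None of the 10 genes passed the adjusted threshold of 0.05 in the limma fit over all 16834 genes tested, in which 0% of genes passed and 3404 had an unadjusted p under 0.05. Igfbp4, Igfbp6 and Irs2 had an unadjusted p under 0.05, were higher in all 3 BRAFYAP libraries than in all 3 YAP libraries, and were the 3 of 10 genes without overlap. Over all genes tested, 20.2% had an unadjusted p under 0.05 (9.68% higher and 10.5% lower in BRAFYAP), and 11.6% were higher and 17.1% lower with no overlap. The median log2 fold change (BRAFYAP minus YAP) was 0.32 over the 10 genes, 5 positive and 5 negative, and −0.12 over all genes tested. With 3 libraries against 3, an exact permutation test of a single gene cannot give a p below 0.1.

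**Figure D1:**
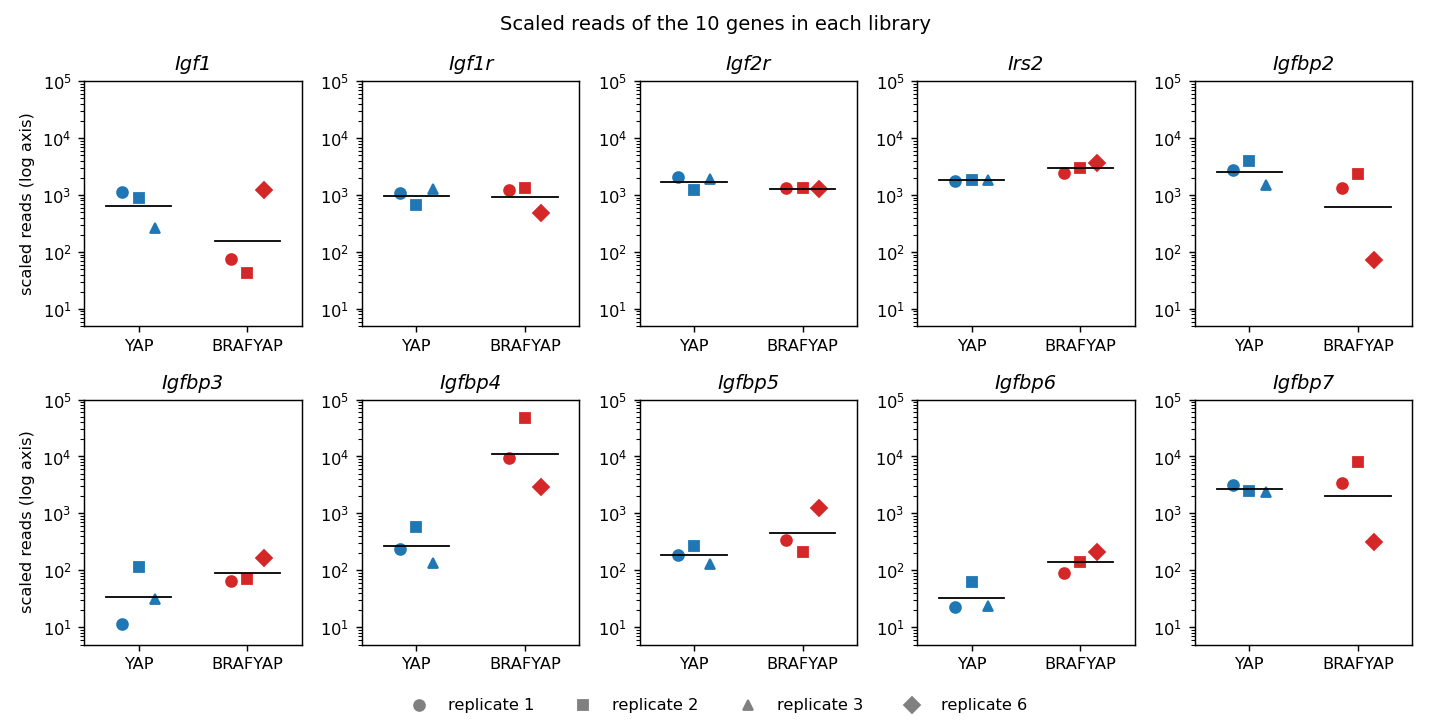
Scaled reads (log axis, same scale in each panel) of the 10 genes in the 3 YAP (blue) and 3 BRAFYAP (red) libraries, with the marker shape giving the replicate and the line the geometric mean. Igfbp4 runs from 137 to 588 in YAP and from 2891 to 47382 in BRAFYAP, and for Igf1, Igfbp2 and Igfbp7 BRAFYAP replicate 6 lies far from BRAFYAP replicates 1 and 2.

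Igfbp4 had the largest difference of the 10 genes. IGFBP4 binds IGF1 and IGF2, mostly holding them from the receptor until the protease PAPP-A cuts it. The gene (ENSMUSG00000017493.12) lies on the + strand of chromosome 11 from 99041244 to 99054392 (mm10, GENCODE M21), just after the promoter printed above. Its scaled reads were 235, 588 and 137 in YAP replicates 1, 2 and 3 and 9381, 47382 and 2891 in BRAFYAP replicates 1, 2 and 6. The lowest BRAFYAP library was above the highest YAP library, and the BRAFYAP libraries also differed widely among themselves, with replicate 2 far above the other two. The YAP mean was 320.2 ± 237 scaled reads (SD, n = 3), and the BRAFYAP mean was 19885 ± 24034 scaled reads (SD, n = 3). The log2 fold change was 5.34 ± 1.01 (SE), a 40.6-fold difference with a 95% interval of 7.86 to 209, with an unadjusted p of 0.0010 and an adjusted p of 0.084 in limma. It ranked 32 from the top of the 16834 genes by log2 fold change.

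The Igfbp4 fold change stayed positive in every alternative fit that was run, and without any 1 library it lay between 4.28 and 6.30. Its limma adjusted p ranged from 0.0021 to 0.25 over the alternatives, and it passed the threshold with array weights (0.0021) and without BRAFYAP replicate 6 (0.041). Over all genes, 4650 of 16834 passed with array weights and 142 of 16590 without BRAFYAP replicate 6. Fibroblasts are a known source of Igfbp4. The summed TPM of 9 fibroblast markers was 137 to 265 in YAP and 145 to 285 in BRAFYAP, so the ranges overlapped. At an unadjusted p under 0.05 in limma, 2 of the 9 markers were higher and 2 lower in BRAFYAP (9.68% and 10.5% of all genes tested). Dcn, a proteoglycan of connective tissue, had 377 to 2415 scaled reads in YAP and 2653 to 5802 in BRAFYAP. Col1a1 had 3026 to 6514 in YAP and 835 to 2463 in BRAFYAP. The part of such cells in the Igfbp4 difference was not tested.

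Igfbp6 prefers IGF2 over IGF1. It lies on chromosome 15 from 102144362 to 102149511 (+). It had 22.6, 63.6 and 23.7 scaled reads in YAP replicates 1, 2 and 3 and 89.7, 141 and 210 in BRAFYAP replicates 1, 2 and 6. All BRAFYAP libraries were above all YAP libraries, at a level that stayed low on both sides. The log2 fold change was 2.06 ± 0.57 (SE), a 4.16-fold difference (95% interval 1.65 to 10.5, limma adjusted p = 0.13), and it lay between 1.76 and 2.53 without any 1 library. With array weights its limma adjusted p was 0.0077, in a fit where 4650 of 16834 genes passed the adjusted threshold. Igfbp3, the main IGF carrier of serum, lies on chromosome 11 from 7206086 to 7213923 (−) and had 11.3, 113 and 31.9 scaled reads in YAP and 64.3, 70.6 and 168 in BRAFYAP. The highest YAP library was above the lower BRAFYAP libraries, and the fold change of 2.58 (95% interval 0.65 to 10.3) had a limma adjusted p of 0.40. Igfbp3 had the lowest group mean TPM of the 10 genes in both groups, 1.41 and 2.88. Igfbp1, which lies 3.54 kb from Igfbp3, had 0 reads in all 6 libraries, where a count of 0 allows up to 3 reads in a library (counting error only).

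Igfbp5 and Igfbp2 are neighbors on chromosome 1, pointing at each other with 5.46 kb between their ends. IGFBP5 binds to matrix and, like IGFBP4, is cut by PAPP-A family proteases. Igfbp5 (72857932 to 72874884, −) had 185, 270 and 128 scaled reads in YAP and 336, 210 and 1262 in BRAFYAP. BRAFYAP replicate 6 was several times higher than every other library, and BRAFYAP replicate 2 was within the YAP range. BRAFYAP minus YAP, the log2 fold change was 1.26 ± 0.68 (SE, limma adjusted p = 0.34) and 0.51 without BRAFYAP replicate 6.

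Igfbp2, a binding protein made by many epithelia and tumors, is at 72824503 to 72852474 (+). It had 2691, 3933 and 1483 scaled reads in YAP replicates 1, 2 and 3 and 1342, 2300 and 71.0 in BRAFYAP replicates 1, 2 and 6. BRAFYAP replicate 2 was above YAP replicate 3, so the groups overlapped, and replicate 6 was more than an order of magnitude below the rest. Igfbp2 had a log2 fold change of −2.05 ± 1.22 with its SE, the lowest of the 10 genes, with a limma adjusted p of 0.38. Without BRAFYAP replicate 6 it was −0.51. The adjacent genes thus had opposite signs, and for both the size rested on the same library.

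Igfbp7, also known as a vascular and senescence-linked secreted protein, spans 77349240 to 77408041 on chromosome 5 (−). Its scaled reads were 3166, 2480 and 2370 in YAP and 3416, 7899 and 320.1 in BRAFYAP. Both extremes were BRAFYAP libraries, replicate 2 at the top and replicate 6 at the bottom. The log2 difference of −0.37 ± 1.06 (SE), with an adjusted p of 0.87 in limma, turned to 0.97 without BRAFYAP replicate 6. The summed TPM of 10 endothelial markers was highest in BRAFYAP replicate 6 (78.2, against 6.10 to 43.9 in the others). The part of endothelial cells in the Igfbp7 values was not tested. On the other strand, Igfbp7 shares 85 bases with Polr2b and 7085 with the antisense gene Gm34648, which had no value here. Whether the counting used strand is not given in the sources used here.

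**Figure D2:**
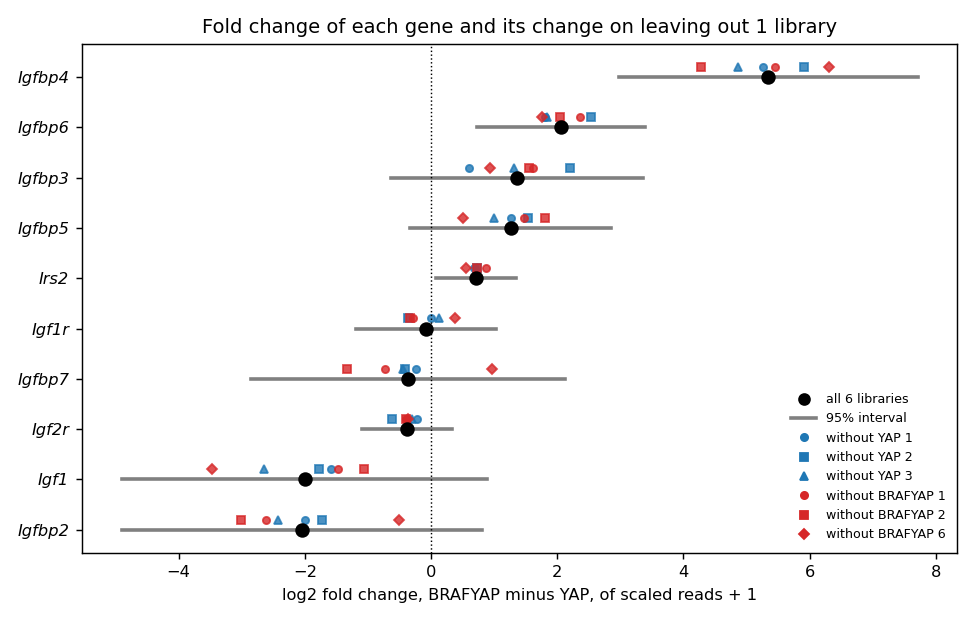
Log2 fold change (BRAFYAP minus YAP, scaled reads + 1) of each gene, with its 95% interval in gray and, above each, the value after leaving out 1 library. The intervals of Igfbp4, Igfbp6 and Irs2 lie above 0, and the red diamonds, which leave out BRAFYAP replicate 6, bring Igfbp2 from −2.05 to −0.51, Igf1 from −2.00 to −3.47 and Igfbp7 from −0.37 to 0.97.

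The make-up of the binding-protein transcripts differed between the groups more clearly than their sum. The 6 summed to 359, 370 and 258 TPM in YAP and to 520.0, 1706 and 125 TPM in BRAFYAP. Igfbp7 and Igfbp2 together made up nearly all of the sum in YAP, where Igfbp7 held 62.6, 46.1 and 68.9% and Igfbp2 held 34.8, 47.8 and 28.2%. Igfbp4 held 1.27, 2.99 and 1.09% of the sum in YAP and 36.4, 57.4 and 46.4% in BRAFYAP. Its share was thus at a similar height in BRAFYAP replicate 6, whose total was the lowest, as in BRAFYAP replicates 1 and 2. Igfbp2 held 12.5, 6.66 and 2.73% in BRAFYAP, below every YAP library. BRAFYAP replicate 6 differed from replicates 1 and 2 in its larger shares of Igfbp5 (14.9%) and Igfbp6 (13.4%). Without Igfbp4, the other 5 summed to 256 to 359 TPM in YAP and 67.0 to 727 TPM in BRAFYAP. These shares restate the levels above and were given no test of their own.

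**Figure D3:**
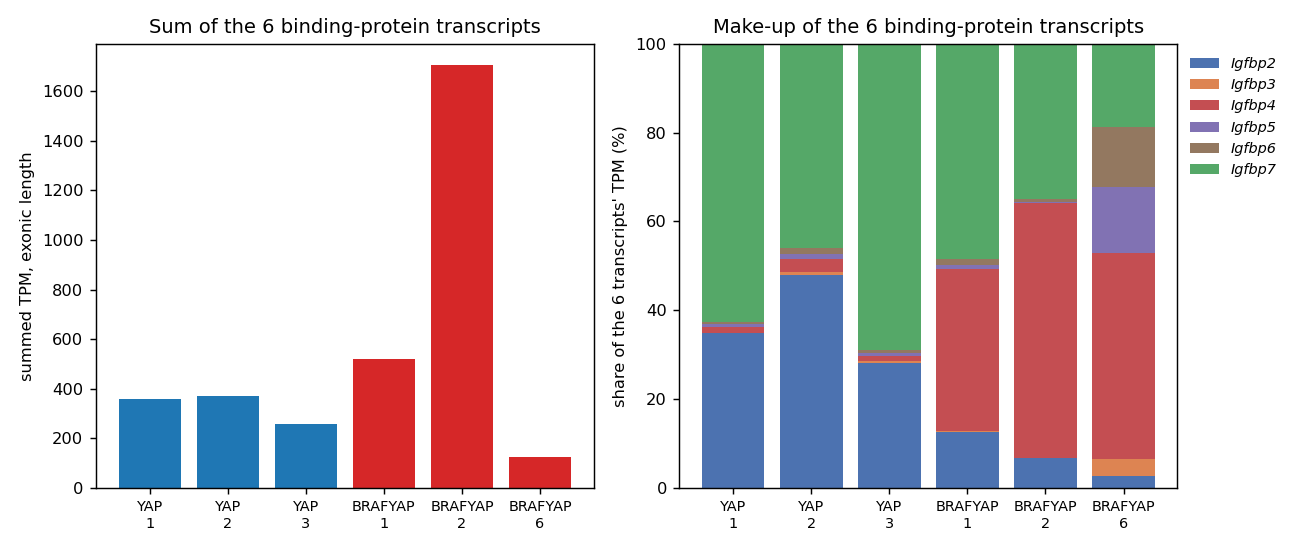
Summed TPM (exonic length) of the 6 binding-protein transcripts in each library on the left, and the share of each in percent on the right. The red Igfbp4 segment fills 1.09 to 2.99% of the YAP bars and 36.4 to 57.4% of the BRAFYAP bars.

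The ligand Igf1 is on chromosome 10 from 87858265 to 87937042 (+). It had 1127, 873 and 263 scaled reads in YAP replicates 1, 2 and 3 and 75.3, 42.4 and 1213 in BRAFYAP replicates 1, 2 and 6. BRAFYAP replicates 1 and 2 were below all YAP libraries, and BRAFYAP replicate 6 was above them all. For Igf1 the log2 fold change was −2.00 ± 1.23 (SE, limma adjusted p = 0.39) and −3.47 without BRAFYAP replicate 6 (adjusted p = 0.067). Array weights were low for BRAFYAP replicate 6 (0.22) and YAP replicates 1 (0.39) and 2 (0.53), and highest for YAP replicate 3 (4.81). With them the Igf1 log2 fold change was −2.20 with an adjusted p of 0.033 in limma. In that fit 4650 of 16834 genes passed the adjusted threshold. Macrophages make Igf1 in many tissues. Their summed markers were lowest in BRAFYAP replicate 6 (4293 TPM, of which Lyz2 was 3007), the library with the most Igf1. Within YAP they were lowest in replicate 3 (15282 TPM), which had the least Igf1 of the 3. Single macrophage markers were split in BRAFYAP replicates 1, 2 and 6, where Ptprc had 613, 409 and 873 scaled reads and Mrc1 had 480, 358 and 587. Cd14 was lowest in BRAFYAP replicate 2 (9988), and the rest of the 11 markers were lowest in BRAFYAP replicate 6. Fibroblasts and endothelial cells also make Igf1. The 9 fibroblast markers summed to 145 TPM in BRAFYAP replicate 6, below the 200.2 and 285 of BRAFYAP replicates 1 and 2. The 10 endothelial markers summed to 78.2 TPM there, against 6.76 and 6.10. Single fibroblast markers were split in this library, with Col1a1 (835 scaled reads) and Col1a2 (2472) at their lowest of the 6 libraries. Col3a1 (3693), Lum (659), Pdgfra (473) and Fap (45.3) were at their highest there, and the rest of the list at neither end. The part of these cell types in the Igf1 values was not tested.

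**Figure D4:**
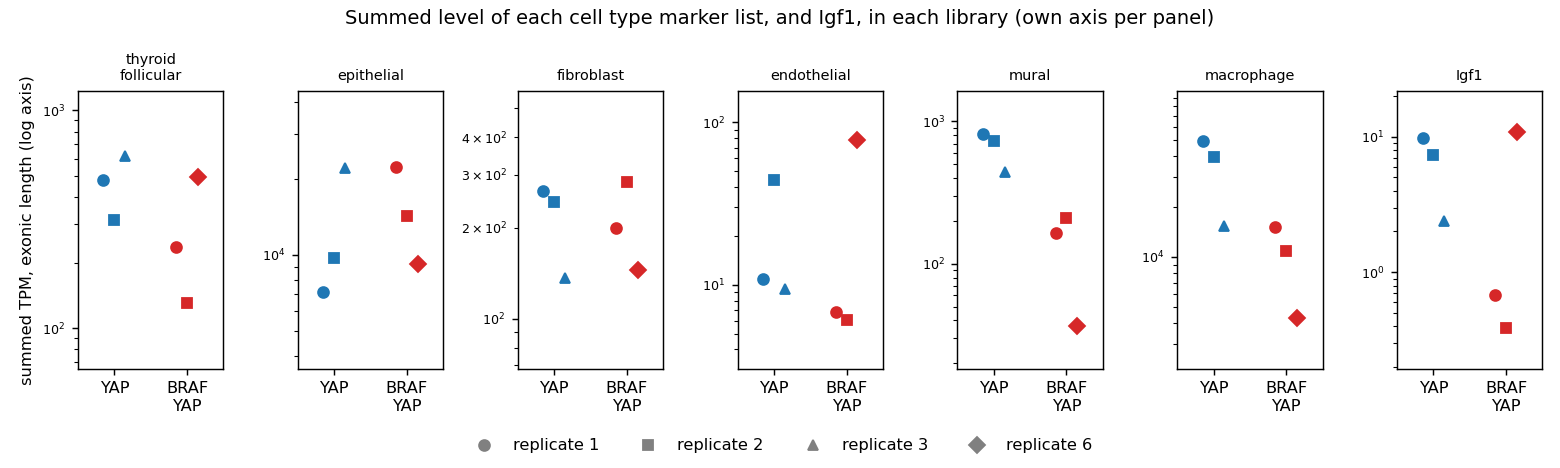
Summed TPM (exonic length, log axis with its own range in each panel) of the markers of 6 cell types and the TPM of Igf1 in each library. BRAFYAP replicate 6 (red diamond) is the highest in endothelial markers (78.2) and Igf1 (10.9). It is the lowest in summed macrophage (4293) and mural (36.7) markers, with Acta2 at 27.1 of the mural sum. Single mural markers are split there, with Acta2 (672 scaled reads) and Cspg4 (298) at their lowest and Rgs5 (182) at its highest.

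The receptors showed no difference beyond the spread between libraries. Igf1r (chromosome 7, 67952827 to 68233668, +) had 1079, 654 and 1288 scaled reads in YAP and 1219, 1305 and 482 in BRAFYAP. The groups covered much the same range, with BRAFYAP replicate 6 the lowest library. The log2 fold change was −0.082 ± 0.47 (SE, limma adjusted p = 0.94). Its 95% interval of −1.20 to 1.03 did not exclude differences of up to about that size in either direction. Its sign also turned on centering the libraries by median ratios (0.040). Igf2r (chromosome 17, 12682406 to 12769664, −) had 2108, 1199 and 1873 scaled reads in YAP and 1301, 1310 and 1251 in BRAFYAP. The BRAFYAP values lay close together inside the YAP range, with a log2 fold change of −0.38 (95% interval −1.09 to 0.33, limma adjusted p = 0.50). The antisense gene Airn shares 28354 bases with Igf2r and had 129 to 268 scaled reads over the 6 libraries, so the reads of the pair may not be fully separated.

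Irs2 (chromosome 8, 10984681 to 11008458, −), which couples the IGF1 and insulin receptors to PI3K, had the smallest SE of the 10 genes. It had 1733, 1846 and 1853 scaled reads in YAP and 2409, 2931 and 3706 in BRAFYAP. Every BRAFYAP library was above every YAP library. The fold change was 1.64 (95% interval 1.05 to 2.55, log2 0.71 ± 0.27 SE) with an unadjusted p of 0.033 and an adjusted p of 0.21 in limma. It stayed between 0.55 and 0.86 on the log2 scale without any 1 library, BRAFYAP replicate 6 included.

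The order of the levels differed between the groups mainly by Igfbp4. In YAP, mean TPM was 191 for Igfbp7, 125 for Igfbp2, 24.8 for Irs2 and 16.1 for Igf2r, followed by Igf1 (6.51), Igfbp4 (6.16), Igf1r (5.24), Igfbp6 (2.81), Igfbp5 (2.77) and Igfbp3. The ranges of Igfbp7 and Igfbp2 overlapped, Irs2 and Igf2r were each separate from their neighbors, and from Igf1 downward every neighbor overlapped the next. In BRAFYAP, mean TPM was 409 for Igfbp4, 291 for Igfbp7, 60.6 for Igfbp2, 42.7 for Irs2, 12.4 for Igf2r, 11.8 for Igfbp6, 8.93 for Igfbp5, 5.37 for Igf1r and 3.97 for Igf1, with Igfbp3 last. There, Irs2 was separate from Igf2r and all other neighbors overlapped.

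Other genes of IGF and insulin signaling came from 5 lists with 51 genes, of which 49 were in the table and 45 were tested. At an unadjusted p under 0.05, 4 were higher and 2 lower in BRAFYAP (9.68% and 10.5% of all genes), 39 did not pass, and none passed after adjustment. Their median log2 fold change was 0.076, against −0.12 over all genes tested. Of the 11 adaptors and feedback genes tested, 1 was higher and 1 lower, and of 6 carriers, proteases and stanniocalcins, 1 was higher and 1 lower. Of 23 PI3K, AKT and mTOR genes, 1 was higher, and of 3 IGF2 mRNA-binding proteins none had an unadjusted p under 0.05.

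Stc2 and Grb10 had the lowest fold changes of these lists. Stanniocalcin 2 inhibits PAPP-A, the protease that cuts IGFBP4. Stc2 had 2106, 1986 and 1229 scaled reads in YAP and 164, 122 and 84.4 in BRAFYAP. The groups lay far apart, by −3.85 ± 0.38 (SE) on the log2 scale with an adjusted p of 0.052 in limma, a fold of 0.069 (95% interval 0.038 to 0.13). Stc1, a second inhibitor of PAPP-A, went the other way, with 3.64, 52.6 and 23.7 scaled reads in YAP and 87.5, 91.1 and 614 in BRAFYAP (log2 fold change 3.23 ± 1.10 SE, limma adjusted p = 0.17). Pappa itself had 105, 50.1 and 25.7 scaled reads in YAP and 178, 363 and 16.0 in BRAFYAP, with overlap (log2 fold change 0.98, limma adjusted p = 0.65); it was named for its link to Igfbp4. GRB10 binds the IGF1 and insulin receptors and dampens them. Grb10 had 338, 631 and 571 scaled reads in YAP and 41.0, 33.8 and 91.5 in BRAFYAP without overlap, and its log2 fold change was −3.28 ± 0.49 (SE) with an adjusted p of 0.065 in limma.

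The genes that were higher were Socs3, Rheb and Insr besides Stc1. Socs3, a feedback inhibitor of cytokine and insulin receptors, had 835, 5451 and 1127 scaled reads in YAP and 6974, 11262 and 11005 in BRAFYAP (log2 fold change 2.46, limma adjusted p = 0.13). Rheb, the GTPase that activates mTORC1, had 393, 2446 and 1086 in YAP and 3441, 3975 and 3125 in BRAFYAP (1.78, adjusted p = 0.18). Insr, the insulin receptor, had 227, 674 and 906 in YAP and 1392, 1163 and 1279 in BRAFYAP (1.30, adjusted p = 0.22). In all of them YAP replicate 1 was the lowest library. Irs1, the other main adaptor, had 150, 79.6 and 123 in YAP and 327, 279 and 112 in BRAFYAP, so that BRAFYAP replicate 6 overlapped the YAP range (0.92, adjusted p = 0.35). Igf2 was near the floor, with 6.17, 3.67 and 19.6 scaled reads in YAP and 18.8, 16.5 and 40.0 in BRAFYAP (1.46, adjusted p = 0.35). Ins1 and Ins2 were not among the genes of the table used here and so were not analysed.

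**Figure D5:**
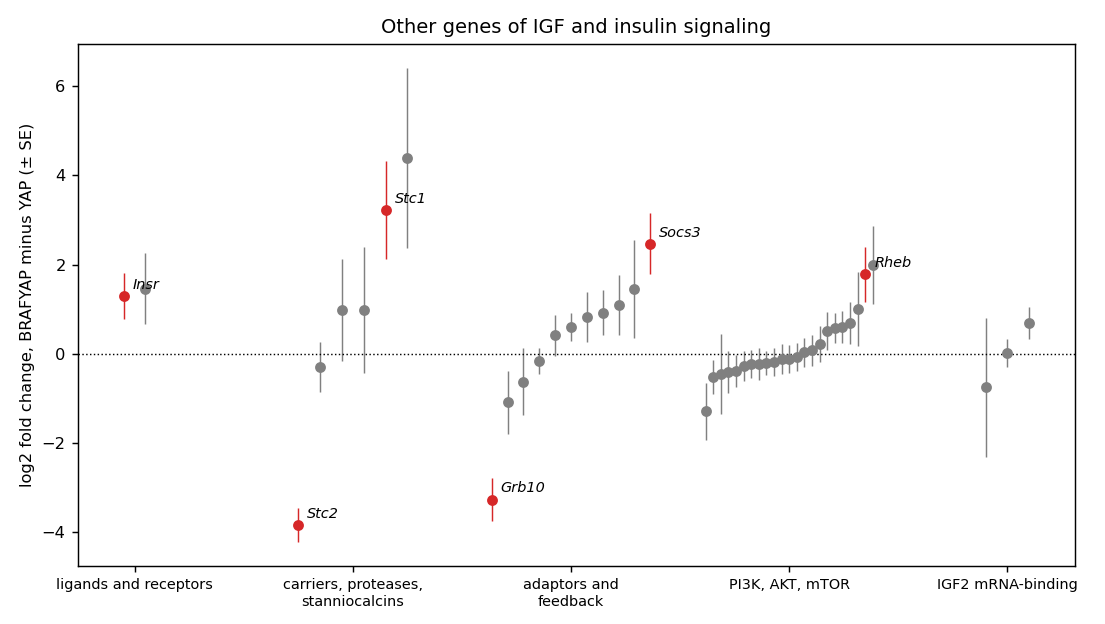
Log2 fold change (BRAFYAP minus YAP) ± SE of the 45 tested genes of 5 IGF and insulin signaling lists, with genes whose groups did not overlap and whose unadjusted p was under 0.05 in red. Stc2 and Grb10 lie below −3, and Stc1, Socs3, Rheb and Insr lie between 1.30 and 3.23.

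The genes whose log2 scaled reads were most alike to Igfbp4 over the 6 libraries were Wrnip1 (Pearson r = 0.991), Gm2115 (0.989) and Slc4a7 (0.989), and 73 genes had an r over 0.95. All of these points share the same libraries, and with 6 points many genes follow any 1 gene closely. Slc4a7, a bicarbonate transporter, had 343, 438 and 344 scaled reads in YAP and 866, 1042 and 568 in BRAFYAP, the same order of BRAFYAP libraries as Igfbp4 over a much smaller range. For Igfbp2 they were Tgs1 (0.995), Elmod1 (0.994) and the processed pseudogene Gm2395 (0.994), and 264 genes had an r over 0.95.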

How the data were processed

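RNA of about 20000 sorted Kate-positive cells per library was amplified with SMART-Seq v4 and sequenced. Per the submitters' processing notes, bcl2fastq 2.2, STAR 2.6.1d and Partek were used with mm10; per the file headers and values, the authors deposited TPM with 0.0001 added, and the values follow a gene's genomic span. For low genes (under 200 reads), 71.5 to 75.7% of values were within 0.05 of a whole multiple of a library step, against 21.6 to 24.2% with exonic length. The offset was removed and the span multiplied back, giving estimated reads, then the authors' library scaling was restored (scaled reads). TPM with exonic length used GENCODE M21 (34645 symbols at 1 locus, 34709 found). Counting error was not modeled separately.

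Genes with a mean of at least 10 scaled reads (16834, all 10 members included, which also passed in each group alone) were fitted as log2(scaled reads + 1) with limma 3.58.1 in R 4.3.3 (lmFit and eBayes with trend, two-sided, Benjamini-Hochberg over all genes, threshold 0.05). Fold changes are on that scale and understate the change of low genes. The 3 libraries of a group are separate samples in the labels; if the YAP libraries are pools, as the labels but not the study's methods say, p-values there measure the spread between pools. Replicate numbers 1 and 2 recur in both groups, but deviations of same-numbered libraries correlated at −0.03 and 0.05, so no pairing was used. Besides the 10 genes, list genes were named where the unadjusted p was under 0.05 without overlap, at most 6 in each direction, with Igf2, Ins1, Ins2, Insr and Irs1 always, and the 3 genes most alike to the genes with the largest positive and negative fold change. Other genes were named after their values were seen. The genes and lists were chosen with earlier results of these data known. Alternatives covered pseudocounts, filters, scale, normalization, variance models, a replicate block, and leaving out each library. Simulated data with known changes were used to check the fit.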

Additional observations from a re-analysis of the deposited data

How the results depend on the processing

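No gene passed the adjusted threshold in the fit reported above, in which 3404 genes had an unadjusted p under 0.05, nor with voom, a pseudocount of 0.1, a mean of at least 50 scaled reads, median-ratio size factors, protein-coding genes or the replicate block. The count was 45 with a pseudocount of 10, 16 with no filter, 18 and 1 with the deposited TPM plus 1 or 0.1, 62 with exonic-length TPM, 62 with quantile normalization, 20 without a trend and 4650 with array weights, and 0 to 142 on leaving out 1 library (142 without BRAFYAP replicate 6 and 3 without YAP replicate 2). Of the 10 genes, array weights put 3 past the adjusted threshold (Igfbp4 at 0.0021, Igfbp6 at 0.0077 and Igf1 at 0.033 in limma) and leaving out BRAFYAP replicate 6 put 1 past it (Igfbp4, 0.041), while no other alternative put any. Array weights gave 6 of the 10 at an unadjusted p under 0.05, where 6915 of all 16834 genes had such a p. Leaving out a library gave 2 to 4, where 2285 to 3839 of all genes had such a p. The number without overlap was 3 to 6, higher with fewer libraries to separate. The share of all genes without overlap was not computed for the fits that left out a library. Array weights set BRAFYAP replicate 6 to 0.22 and YAP replicate 3 to 4.81. The pathway count of 6 was 18 of 45 tested with array weights (6915 of 16834 over all genes). It was 3 of 49 with no filter (3902 of 34645 over all genes). With the deposited TPM plus 1 or 0.1 it was 3 of 12 (1455 and 1379 of 7319 over all genes). Without 1 library it was 4 to 11 (11 without YAP replicate 2, where 3839 of 16871 genes had such a p). The Igf1r log2 fold change turned to 0.040 with median-ratio factors, 0.58 with the replicate block and at most 0.38 (without BRAFYAP replicate 6; −0.37 at the lowest) on leaving out a library, where it was also 0.12 without YAP replicate 3. That of Igfbp7 turned to 0.090 with the deposited TPM plus 1, 0.77 with array weights, 0.89 with the replicate block and 0.97 without BRAFYAP replicate 6 (−1.34 at the lowest). The replicate block adds little here, since numbers 1 and 2 did not pair the libraries, and it drops YAP replicate 3 and BRAFYAP replicate 6 from the contrast. The other 8 genes kept their direction in every alternative that gave them a value, Igfbp4 with 4.06 to 6.60, Irs2 with 0.52 to 0.86, Igfbp6 with 1.54 to 2.53, Igfbp3 with 0.60 or more, Igfbp5 with 0.25 to 1.81, Igf2r with −0.63 to −0.22, Igfbp2 with −3.01 to −0.26 (array weights) and Igf1 with −4.11 (replicate block) to −1.07. Median-ratio factors moved the median of all genes from −0.12 to 0.01. The causes were not tested. With 3 libraries a group, the 95% intervals of Igfbp3 and Igfbp5 in the fit reported above included 0.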

Other observations

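The genes on either side of Igfbp4 on chromosome 11, looked at after its values were seen, did not share its difference. Top2a, a DNA topoisomerase of dividing cells that ends 17.1 kb before Igfbp4, had 1181, 821 and 819 scaled reads in YAP and 188, 115 and 305 in BRAFYAP (log2 fold change −2.29 ± 0.42 SE, limma adjusted p = 0.082), the opposite sign with no overlap. Tns4, a focal adhesion protein 11.3 kb after it, had 704, 647 and 196 in YAP and 265, 149 and 63.9 in BRAFYAP (−1.71 ± 0.68 SE, limma adjusted p = 0.23), with overlap. Rara, a retinoic acid receptor 66.3 kb before it, had 338, 1382 and 827 in YAP and 1354, 1539 and 536 in BRAFYAP, with overlap.

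Pappa2, a protease that cuts IGFBP5, was read almost only in 1 library. It had 0, 3.67 and 0 scaled reads in YAP and 1.11, 27.5 and 720 in BRAFYAP, where 720 belonged to BRAFYAP replicate 6, the library with the most Igfbp5. It was chosen after its values were seen.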
